A study of Mus musculus with 2 samples.

Results

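The receptors through which bone marrow progenitors respond to hematopoietic cytokines and growth factors were followed across mouse marrow cells sorted as negative for lineage markers, positive for the receptor c-Kit and negative for Sca1 (LKS- cells). They are encoded by 9 of the 31053 genes of the count matrix, chosen by name: Kit, Flt3, Csf1r, Csf3r, Csf2ra, Csf2rb, Csf2rb2, Epor and Il6ra. All 9 had transcripts in both libraries. Single-cell RNA was measured with the 10x Genomics 3′ kit in 1 Control library and in 1 library labelled Runx1 KO, both of strain C57BL/6. The Control library pooled marrow of 2 mice, 1 Runx1f/f and 1 Runx1f/-, so 1 of them carried a germline mutation on 1 Runx1 allele. The sources used here do not give the Cre driver or the number of mice behind the library labelled Runx1 KO, nor any treatment or age. Without a second library of either genotype no test between genotypes exists, and every interval below is a 95% interval for counting error and does not include the spread between mice.

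Hematopoietic cytokine receptors fall into families by the way they signal. Kit, Flt3 and Csf1r are receptor tyrosine kinases, which phosphorylate themselves when stem cell factor, Flt3 ligand or macrophage colony-stimulating factor (CSF) joins their chains. Csf3r (granulocyte CSF), Epor (erythropoietin), Il6ra (interleukin-6) and the Csf2r chains have no kinase of their own and signal through Janus kinases (JAK) and STAT factors. Csf2ra binds granulocyte-macrophage CSF, and Csf2rb is the beta chain it shares with the interleukin-3 and interleukin-5 receptors. Csf2rb2 is a second beta chain of the mouse that serves interleukin-3 alone. In marrow, Kit marks progenitors of all lineages, Epor serves the erythroid line, Csf3r the neutrophil line, Csf1r the monocyte line, and Flt3 the early lymphoid, dendritic and myeloid progenitors.

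The Control library held 6906 cells with a median of 21593.5 unique molecular identifiers (UMIs), and the library labelled Runx1 KO held 7889 cells with a median of 16092. Runx1 transcripts were at 143 counts per 1000000 UMIs (CPM) in Control and 361 CPM in the library labelled Runx1 KO, so the count was not lower under the knockout label. The labels do not give the deleted part of the gene, so 3′ tags may lie outside it and check nothing. There were 13 cell barcodes that occurred in both libraries. The deposited annotation sorts the cells into 18 classes named by a gene, and 10 classes with at least 50 cells in each library were compared. Class shares differed: the Pf4 class held 222 Control cells against 1782 from the other library, and the Ly86 class held 1326 and 553. A list of 10 megakaryocyte markers summed to 6143 CPM in Control and 6693 CPM in the other library in the Pf4 class, erythroid markers to 8208 and 7080 CPM in Hba-a2, and late neutrophil markers to 99384 and 96356 CPM in Ltf. In Car1, the largest class, the sums stood apart: erythroid markers, all 12 of which were found in the library labelled Runx1 KO and 11 in Control, summed to 3667 CPM in Control and 1235 CPM in the other library.

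Promoters are printed for the receptors on which the largest differences below turn, Csf3r, Csf2rb2 and Flt3, and for Csf2ra and Epor as the granulocyte-macrophage and erythroid counterparts. RefSeq promoter windows (GRCm38.p6) run from 250 bases before to 50 after the start of transcription, 5′ to 3′ in the direction of the gene, and 7 of the 9 receptors had an entry, all but Csf1r and Csf2rb. Capitals mark matches, on either strand, to 4 short motifs. For RUNX factors the letters searched were TGTGGT. For PU.1, a myeloid factor, they were GAGGAA. For the GATA family they were AGATAA, and for the C/EBP family they were TTGCNNAA.
Csf3r promoter, chr4:126024409-126024708, plus strand: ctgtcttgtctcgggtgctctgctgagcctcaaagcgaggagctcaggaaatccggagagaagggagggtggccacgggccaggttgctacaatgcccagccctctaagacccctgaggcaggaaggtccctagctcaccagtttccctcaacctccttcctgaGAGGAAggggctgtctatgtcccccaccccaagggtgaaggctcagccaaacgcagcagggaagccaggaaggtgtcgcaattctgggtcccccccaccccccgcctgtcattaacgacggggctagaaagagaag
Csf2rb2 promoter, chr15:78305672-78305971, minus strand: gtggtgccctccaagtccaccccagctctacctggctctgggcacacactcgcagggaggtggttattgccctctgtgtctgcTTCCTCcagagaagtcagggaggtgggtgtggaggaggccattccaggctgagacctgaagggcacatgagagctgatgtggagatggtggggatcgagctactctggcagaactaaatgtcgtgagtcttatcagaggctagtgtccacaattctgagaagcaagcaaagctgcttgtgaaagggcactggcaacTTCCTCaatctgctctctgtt
Csf2ra promoter, chr19:61228369-61228668, minus strand: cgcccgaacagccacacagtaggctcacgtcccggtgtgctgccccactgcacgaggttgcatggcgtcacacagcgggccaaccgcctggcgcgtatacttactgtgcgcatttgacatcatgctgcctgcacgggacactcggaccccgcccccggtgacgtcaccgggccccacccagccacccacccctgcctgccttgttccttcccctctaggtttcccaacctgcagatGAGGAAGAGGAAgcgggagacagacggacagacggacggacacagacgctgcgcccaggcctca
Epor promoter, chr9:21963527-21963826, minus strand: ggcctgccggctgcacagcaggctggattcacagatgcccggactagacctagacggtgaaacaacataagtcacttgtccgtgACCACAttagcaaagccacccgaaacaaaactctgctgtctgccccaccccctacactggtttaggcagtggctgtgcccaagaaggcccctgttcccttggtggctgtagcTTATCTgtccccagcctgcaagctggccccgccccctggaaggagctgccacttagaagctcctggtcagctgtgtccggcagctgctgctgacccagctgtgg
Flt3 promoter, chr5:147400440-147400739, minus strand: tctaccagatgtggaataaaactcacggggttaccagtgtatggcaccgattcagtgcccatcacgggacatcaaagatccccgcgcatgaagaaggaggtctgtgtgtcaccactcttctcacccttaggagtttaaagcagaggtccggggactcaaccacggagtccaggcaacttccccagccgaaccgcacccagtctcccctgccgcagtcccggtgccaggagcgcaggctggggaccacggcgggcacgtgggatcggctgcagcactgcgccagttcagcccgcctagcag
The Csf3r window held 1 PU.1 match, 86 bases before the start, and the Csf2rb2 window held 2, at 167 bases before and 30 bases after it. In Csf2ra, 2 PU.1 matches followed each other directly, at 14 and 8 bases before the start. The Epor window held a RUNX match at 166 bases before and a GATA match at 54 bases before the start. None of the 4 motifs occurred in the Flt3 window. Among 32851 promoter windows, 16.8% held the RUNX letters, 28.3% those of PU.1, 11.2% those of GATA and 10.8% those of C/EBP, so each match is a description of letters that many promoters share.

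Over all cells the receptors differed in opposite directions between the libraries. A gene was counted as measured when it had at least 100 UMIs over both libraries and 10 CPM in the higher one, which held for 8 of the 9 receptors (Csf2rb2 reached 8.35 CPM). Of these 8, Csf3r and Csf2rb were at least 1.5-fold higher in the library labelled Runx1 KO, against 6.35% of all 8060 measured genes. Flt3 and Csf1r were at least 1.5-fold lower, against 2.92% of measured genes. The ratio for Csf3r was 1.503 (1.44 to 1.57), so it lay at the threshold. Within single classes 55 of the 90 pairs of receptor and class were measured. Of these pairs 15 were at least 1.5-fold higher and 3 at least 1.5-fold lower, and the lower pairs were all Flt3. The counts are given beside the share of all measured genes past the same threshold in each class. In Pf4, 4 of 7 measured receptors were higher (Csf3r, Csf2rb, Csf2rb2 and Epor) and none lower, where 10.6% of genes were higher and 6.41% lower. In CD34, 2 of 8 were higher (Csf2rb and Csf2rb2) and 1 lower (Flt3), where 4.80% and 2.44% of genes were. In Ly86, 2 of 7 were higher (Csf3r and Csf2rb) and 1 lower (Flt3), where 3.58% and 1.90% of genes were. In Car1, 2 of 5 were higher (Csf3r and Csf2rb) and none lower, where 6.22% and 3.00% of genes were. Csf2rb was the 1 higher receptor in each of 5 further classes. Of all genes, 3.16% were higher and 1.70% lower in Gstm1/Ly86, 2.55% and 1.33% in Gstm1/CD63, 2.19% and 2.63% in Fcnb, 8.36% and 10.3% in Ltf, and 10.0% and 8.86% in Unannotated, where Flt3 was lower. In Hba-a2 neither of the 2 measured receptors was past the threshold, where 4.40% of genes were higher and 1.85% lower. Without the small Ltf class and the Unannotated class the counts were 13 and 2. Of the 15 higher pairs, 6 reached 10 CPM only in the library labelled Runx1 KO: Csf3r, Csf2rb and Csf2rb2 in Pf4, Csf3r and Csf2rb in Car1, and Csf2rb2 in CD34. Of the 3 lower pairs 1, Flt3 in Unannotated, reached it only in Control, as Flt3 did over all cells. Such pairs had to differ to be counted, so the counts describe the receptors and nothing is read from their height.

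**Figure D1:**
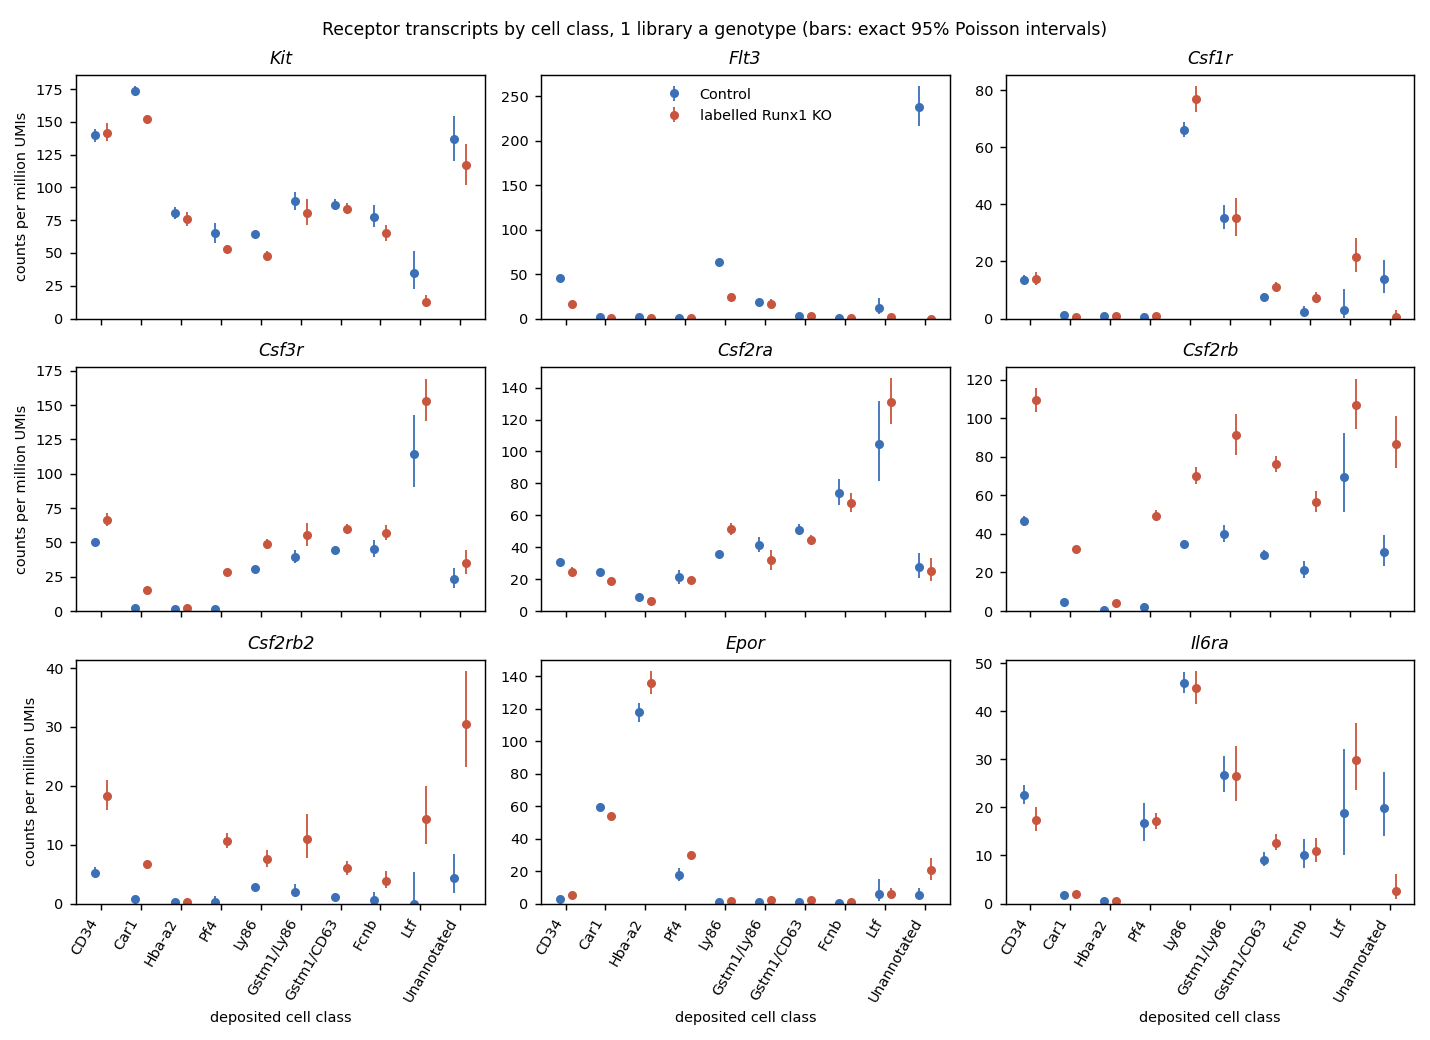
Level of each receptor transcript (y axis, CPM) in the 10 compared classes (x axis) in Control (blue) and in the library labelled Runx1 KO (red), with exact Poisson 95% intervals. The red points of Csf2rb lie above the blue ones in every class, Epor is highest in Hba-a2, and the blue point of Flt3 in Unannotated reaches 238 CPM where the red one is at 0.

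**Figure D2:**
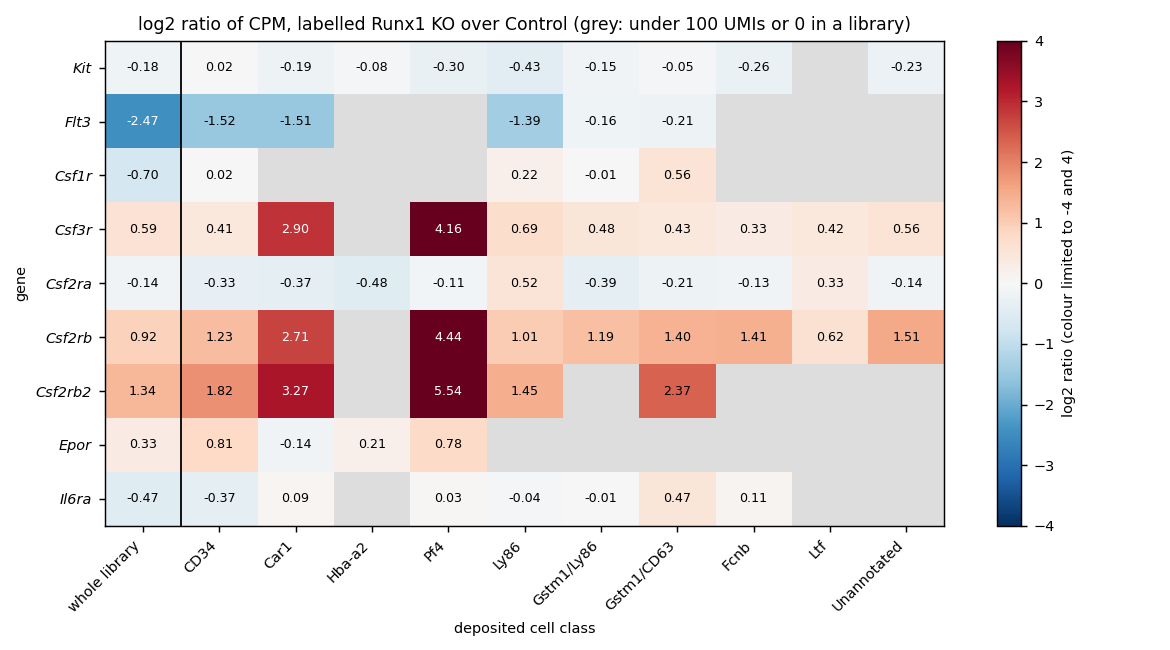
log2 of the CPM ratio of the library labelled Runx1 KO over Control for each receptor (rows) over the whole library and in each class (columns), with grey where fewer than 100 UMIs were counted or a library had none. Csf2rb has positive values in all coloured fields, from 0.62 in Ltf to 4.44 in Pf4, and Flt3 has negative values in all of its coloured fields.

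Csf2rb, the shared beta chain (ENSMUSG00000071713, GRCm38 chr15:78325752-78353847, plus strand), was at a higher level in the library labelled Runx1 KO in every compared class. Its CPM was above Control in 10 of 10 classes, with the interval of the ratio above 1 in all 10, and at least 1.5-fold above it in the 9 measured ones. In the CD34 class, whose early progenitor markers summed to 1003 and 1002 CPM, it was at 46.6 CPM in Control and 109 CPM in the other library, a ratio of 2.34 (2.16 to 2.54). Other marker sums differed in CD34: megakaryocyte markers stood at 124 and 556 CPM, basophil and mast cell markers at 696 and 1097 CPM, and neutrophil progenitor markers at 6115 and 4860 CPM, and their part in the Csf2rb value was not tested. In the Ly86 class it was at 34.8 and 70.0 CPM, a ratio of 2.01 (1.85 to 2.18). Gstm1/CD63, the largest class of neutrophil progenitors by its markers, had 28.9 and 76.3 CPM, a ratio of 2.64 (2.38 to 2.92). In the 7 classes in which Control held at least 20 CPM, the ratio ran from 1.54 (1.13 to 2.14) in Ltf to 2.84 (2.09 to 3.91) in Unannotated. The Unannotated cells differed in kind between the libraries. Their megakaryocyte markers summed to 155 and 1436 CPM and their lymphoid markers to 1481 and 14.2 CPM, and the part of this in the ratio was not tested.
The classes in which Control held few showed larger ratios. In the Car1 class, erythroid progenitors by their markers, Csf2rb was at 4.87 CPM in Control and 32.0 CPM in the other library, a ratio of 6.56 (5.69 to 7.59). The erythroid markers of Car1 were lower in the library labelled Runx1 KO, as given above, and their part in the Csf2rb and Csf3r values was not tested. In the Pf4 class, megakaryocyte progenitors by their markers, it was at 2.29 CPM, which is 10 UMIs, and at 49.5 CPM, a ratio of 21.7 (11.7 to 45.3). In Hba-a2, the later erythroid class, it was low in both, at 0.598 and 3.95 CPM. The Control class with the highest level was Prss34, a class of basophil and mast cell genes with 337 cells, at 169.8 CPM, and only 1 cell of the other library was in that class.

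With each cell thinned to 5000 UMIs, so that depth was equal, the share of cells with a Csf2rb UMI was 2.34% in Control and 12.97% in the library labelled Runx1 KO in Car1, and 1.95% and 20.02% in Pf4. As counted, before thinning, those shares were 6.61% and 27.9% in Car1, and 4.50% and 38.8% in Pf4. The median depth was 15393.5 and 14621 UMIs in Car1 and 18341.5 and 13028.5 in Pf4. In Hba-a2, the deepest class at 51294.5 and 37146 UMIs, the share as counted was 2.04% and 7.23%, and 1.02% in the library labelled Runx1 KO when thinned. The thinned Pf4 ratio of CPM was 13.9, and the unthinned Car1 ratio without cells holding a UMI of 6 platelet genes was 4.14.

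**Figure D3:**
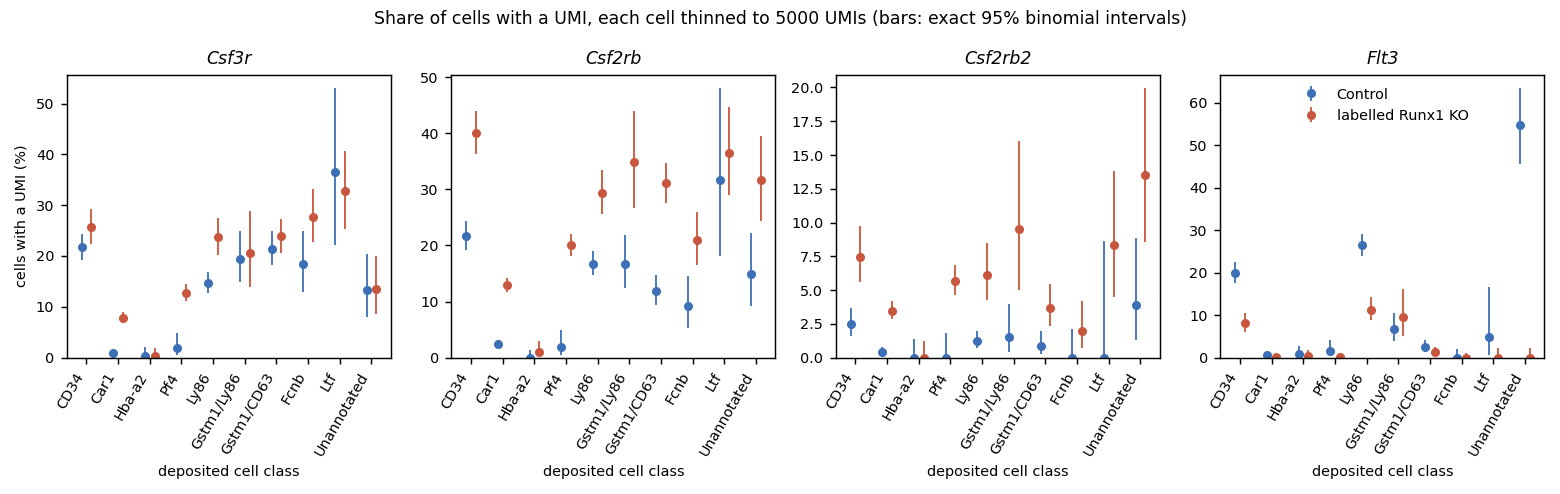
Share of cells with at least 1 UMI (y axis, %) of Csf3r, Csf2rb, Csf2rb2 and Flt3 in the 10 classes (x axis) after thinning each cell to 5000 UMIs, with exact binomial 95% intervals, for Control (blue) and the library labelled Runx1 KO (red). Csf2rb shows 12.97% and 20.02% of cells in Car1 and Pf4 of the red library where the blue one shows 2.34% and 1.95%, while in Hba-a2 both are near 0.

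Csf2rb2, the interleukin-3 beta chain (ENSMUSG00000071714, chr15:78282507-78305721, minus strand), lies beside Csf2rb on the opposite strand. Of 4739 windows of 91 bases in its transcripts, 387 (8.17%) also occur in Csf2rb transcripts. None of the 820 windows in the last 500 bases is shared, so 3′ tags of the 2 genes differ in sequence there. The interval of its ratio lay above 1 in 9 of 10 classes. In CD34 it was at 5.20 CPM in Control and 18.3 CPM in the other library, a ratio of 3.53 (2.80 to 4.46). In Car1 it was at 0.690 and 6.64 CPM, a ratio of 9.63 (6.65 to 14.4). In Pf4 there was 1 UMI in Control (0.229 CPM) against 267 UMIs (10.6 CPM), a ratio of 46.4 with an interval of 8.27 to 1841. The size of the Pf4 difference is therefore poorly bounded. In Ltf, with 0 UMIs in Control and 14.4 CPM in the other library, it was at least 3.30-fold higher against a floor of 3 counts over the class. Hba-a2 had 3 and 2 UMIs, so no difference was detectable there. In Prss34 of Control the level was 42.7 CPM.

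Csf2ra, the granulocyte-macrophage CSF chain (ENSMUSG00000059326, chr19:61223957-61228429, minus strand), did not share this pattern: no class was past 1.5-fold in the 9 measured ones, and its ratio was above 1 with its interval in 1 class and below 1 in 5. In Ly86, the monocyte progenitor class, it was higher in the library labelled Runx1 KO, at 35.8 and 51.4 CPM, a ratio of 1.44 (1.31 to 1.57). In Car1 it was lower, at 24.8 and 19.1 CPM, a ratio of 0.772 (0.707 to 0.842). In CD34 it was at 30.7 and 24.5 CPM, a ratio of 0.796 (0.691 to 0.916), where Csf2rb had its ratio of 2.34. The highest levels of the compared classes were in Ltf, the late neutrophil class, at 104 and 131 CPM, then in Fcnb at 74.2 and 67.7 CPM, and in neither did the 2 libraries differ beyond counting error. The lowest were in Hba-a2, at 8.97 and 6.43 CPM. The chain that binds the ligand and the chain that it shares therefore differed in opposite directions in CD34 and Car1.

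Csf3r, the granulocyte CSF receptor (ENSMUSG00000028859, chr4:126024550-126044440, plus strand), was higher in the library labelled Runx1 KO in 10 of 10 classes by CPM, with the interval of the ratio above 1 in 8. The ratio was at least 1.5 in 3 of its 9 measured classes. In the neutrophil line the ratios were small: 44.3 and 59.7 CPM in Gstm1/CD63, a ratio of 1.35 (1.23 to 1.48), 45.1 and 56.8 CPM in Fcnb, a ratio of 1.26 (1.06 to 1.49), and 114 and 153 CPM in Ltf, a ratio of 1.34 (1.05 to 1.73). Ltf held the highest Csf3r level of the compared classes in both libraries, and CD34 the next. In CD34 it was at 50.1 and 66.4 CPM, a ratio of 1.33 (1.21 to 1.46). Its level in Ly86 was 30.3 and 49.0 CPM, and the ratio 1.62 (1.47 to 1.78). Car1 and Pf4 differed most. In Car1 it was at 2.09 CPM in Control and 15.7 CPM in the other library, a ratio of 7.48 (6.04 to 9.37). In Pf4 it was at 1.60 CPM, which is 7 UMIs, and at 28.7 CPM, which is 721 UMIs, a ratio of 17.9 (8.65 to 44.7). In Hba-a2 it was at 1.34 and 1.93 CPM, and the interval of that ratio included 1. Thinned to equal depth, 0.906% of Control cells and 7.84% of the other cells of Car1 had a Csf3r UMI (2.99% and 19.5% as counted). In Pf4 the shares were 1.95% and 12.7% (2.70% and 29.97% as counted), and in Hba-a2, the later erythroid class, 0.368% and 0.340% (5.10% and 2.83% as counted). The thinned ratio of CPM in Pf4 was 7.06.

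The markers of other cell types were set beside these values. Summed neutrophil progenitor markers, 9 of 9 of them detected in Car1, stood at 521 CPM in Control and 333 CPM in the other library in Car1, and at 233 and 238 CPM in Pf4, so they were lower in the first and near equal in the second. Late neutrophil markers were higher, at 8.23 and 51.2 CPM in Car1, 8.92 and 66.4 CPM in Pf4, 17.4 and 160 CPM in Ly86, and 19.4 and 52.8 CPM in CD34. Of the 8 late neutrophil markers, Camp was at 1.83 and 11.1 CPM in Pf4, Ngp at 1.83 and 4.66 CPM and Ltf at 0.229 and 1.67 CPM, while Mmp8 and Ly6g were at 0 there in the library labelled Runx1 KO. In Hba-a2 the summed late neutrophil markers were higher still, at 11.4 and 214.5 CPM, where Csf3r stood at 1.34 and 1.93 CPM. Camp was there at 2.02 and 103 CPM, Ngp at 1.57 and 39.4 CPM and Ltf at 0.149 and 21.1 CPM. In Ly86 Camp was at 2.30 and 8.59 CPM, Ngp at 1.57 and 3.00 CPM and Ltf at 0.379 and 1.64 CPM. In the library labelled Runx1 KO these genes held most of the Hba-a2 sum. Other genes of the list held most of it in Pf4 and Ly86. Csf3r UMIs for each 1000 UMIs of the granule genes Mpo, Elane, Prtn3 and Ctsg numbered 4.45 and 54.7 in Car1, 9.15 and 145.8 in Pf4, and 6.04 and 6.30 in Hba-a2. In Ltf, the late neutrophil class, they numbered 53.7 and 111.6, and in Unannotated 37.8 and 108.9. Classes with few granule gene UMIs, late neutrophils among them, thus also had high values. Whether late neutrophil RNA had a part in the Csf3r values of these classes was not tested.

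The Car1 class was further divided by erythroid and platelet genes, a division chosen after seeing the data. Among thinned cells with a UMI of Klf1, Ermap or Rhd, which serve the erythroid line, Csf3r occurred in 9 of 1301 Control cells (0.692%, 0.317 to 1.31) and in 50 of 1209 cells of the other library (4.14%, 3.08 to 5.42). Of the cells that in addition held no UMI of 6 platelet genes, it occurred in 0.673% and 3.60%. Epor was found in 26.3% and 30.1% of the cells with an erythroid UMI, and Kit in 59.4% and 55.1%, and the intervals of the libraries overlapped for each gene. Of those without a platelet gene UMI, Epor was found in 26.7% (24.2 to 29.3) and 33.5% (30.1 to 37.1), intervals that did not overlap. Cells without those erythroid UMIs had Csf3r in 1.26% and 10.5% of cells, and Csf2rb in 4.02% and 18.9%. In the cells with an erythroid UMI, Csf2rb occurred in 1.31% (0.763 to 2.08) and 4.63% (3.52 to 5.97). A platelet gene UMI was held by 14.02% of the thinned Car1 cells of Control and by 56.2% of the others, and megakaryocyte markers summed to 264 and 693 CPM in the class. In unthinned counts, leaving out cells with a platelet UMI kept 1540 of 2210 Control cells and 587 of 3003 others in Car1. The Csf3r ratio was then 2.67, and without the highest doublet scores instead it was 14.9.

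Flt3 (ENSMUSG00000042817, chr5:147330741-147400489, minus strand) had the lowest ratio of the receptors over all cells. Over all cells it was at 26.5 CPM in Control and 4.80 CPM in the library labelled Runx1 KO, 5.53-fold lower (5.10 to 6.00), or a ratio of 0.289 without cells holding a platelet UMI. In CD34 it was at 45.7 and 16.0 CPM, 2.86-fold lower (2.44 to 3.36), and in Ly86 at 63.9 and 24.3 CPM, 2.63-fold lower (2.35 to 2.95). At equal depth 19.9% of Control cells and 8.05% of the other cells in CD34 had a UMI (42.8% and 19.9% as counted), and 26.5% and 11.3% in Ly86 (56.7% and 31.8% as counted). In Gstm1/Ly86, whose level was lower than in Ly86, the values were 18.8 and 16.8 CPM with a ratio of 0.892 (0.642 to 1.22), so no difference was detectable. In the Unannotated class it was at 238 CPM in Control and at 0 of 175 cells in the other library, which allows a share of cells with a UMI of up to 1.71% by 3 counts and 2.09% by the exact binomial interval, and was at least 151-fold lower against a floor of 3 counts over the class. Those Unannotated cells differed in kind: lymphoid markers summed to 1481 CPM in Control, nearly all of it Dntt at 1405 CPM, and to 14.2 CPM in the other library. Megakaryocyte markers summed there to 155 and 1436 CPM. A UMI of 6 platelet genes was held by 19 of its 143 Control cells and by 161 of the 175 others. Lymphoid markers were also lower in Ly86, at 64.8 and 7.77 CPM with Dntt at 59.9 and 5.38 CPM, and in CD34, at 15.4 and 4.11 CPM. Their part in the Flt3 differences was not tested. In the Cd74 class, named for an antigen presentation gene, which had 56 Control cells, Flt3 was at 121 CPM, and only 7 cells of the other library were in it. Flt3 overlaps the antisense gene Gm26597, and the counting is not stated to use strand.

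Csf1r (ENSMUSG00000024621, chr18:61100598-61132149, plus strand) had a ratio over all cells that Ly86 and Gstm1/Ly86, its highest among the compared classes, did not share. It was at 20.3 CPM in Control and 12.5 CPM over all cells of the other library, 1.62-fold lower, and without cells holding a platelet UMI the ratio was 1.07. In Ly86, where it was highest of the compared classes, it was at 66.0 and 76.8 CPM, a ratio of 1.16 (1.08 to 1.25). A UMI was held by 26.4% and 32.5% of its thinned cells (72.6% and 77.9% as counted). In Gstm1/Ly86 it was at 35.3 and 35.0 CPM and in CD34 at 13.6 and 13.8 CPM, without a difference beyond counting error. In the neutrophil classes it was higher in the library labelled Runx1 KO, at 7.54 and 11.1 CPM in Gstm1/CD63 and at 2.42 and 7.18 CPM in Fcnb, with ratios of 1.48 (1.18 to 1.85) and 2.97 (1.53 to 6.29). In Ltf there were 2 UMIs in Control and 54 in the other library. Fcnb, with 11 and 54 UMIs, and Ltf were below the limit for a measured gene. The interval lay below 1 in Car1, at 1.40 and 0.664 CPM, and in Unannotated, with 26 UMIs and 1 UMI, both also below that limit. No UMI was found in the 337 Prss34 cells of Control. Csf1r overlaps Hmgxb3 on the opposite strand and the microRNA gene Mir6983.

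Kit (ENSMUSG00000005672, chr5:75574916-75656722, plus strand) was part of the sort gate, which bounds what its values can show: cells without surface c-Kit were removed. Its level was 114 CPM in Control and 100.3 CPM over the other library, a ratio of 0.881 (0.862 to 0.900), and no class was past 1.5-fold in the 9 measured ones. The order of the classes was alike in both libraries. Of the compared classes Car1 was highest, at 174 and 152 CPM, followed by CD34 at 139.6 and 142 CPM, where the libraries did not differ beyond counting error. Unannotated was next, at 137 and 117 CPM, and the Gstm1/Ly86, Gstm1/CD63, Hba-a2 and Fcnb classes lay between 65.0 and 89.6 CPM. In Ly86 it was at 64.3 and 47.6 CPM, a ratio of 0.741 (0.680 to 0.807). Ltf was lowest, at 34.8 and 12.8 CPM, and with each cell thinned 9.76% and 1.28% of its cells had a Kit UMI (26% and 7.69% as counted).

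Epor (ENSMUSG00000006235, chr9:21958897-21963506, minus strand) followed the erythroid classes. It was at 118 CPM in Control and 136 CPM in the other library in Hba-a2, a ratio of 1.15 (1.07 to 1.24), and at 59.5 and 53.9 CPM in Car1, a ratio of 0.906 (0.858 to 0.956). At equal depth 43.8% and 46.3% of Hba-a2 cells and 22.4% and 20.8% of Car1 cells had a UMI, so the later class was above the earlier one in both libraries. As counted these shares were 89.8% and 93.4% in Hba-a2, and 52.4% and 48.2% in Car1. In Pf4 it was at 17.6 and 30.2 CPM, a ratio of 1.71 (1.35 to 2.19), where erythroid markers summed to 379 and 359 CPM. Without cells holding a platelet UMI, which left 8 and 10 Pf4 cells, that ratio was 0.389. In the granulocyte and monocyte classes it stood at 5.99 CPM or lower in both libraries. In Unannotated it was at 5.36 and 20.5 CPM, where erythroid markers summed to 292 and 414 CPM and megakaryocyte markers to 155 and 1436 CPM. The part of these cells in that difference was not tested.

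Il6ra (ENSMUSG00000027947, chr3:89864059-89913196, minus strand), which joins the signal chain encoded by Il6st, was highest of the compared classes in Ly86, at 45.9 CPM in Control and 44.8 CPM in the other library, a ratio of 0.975 (0.890 to 1.07). In Gstm1/Ly86 it was at 26.7 and 26.5 CPM, and in Pf4 at 16.7 and 17.1 CPM. Thus 3 classes in which Csf2rb differed from 2.01 to 21.7-fold held Il6ra within counting error. It was lower in CD34, at 22.6 and 17.5 CPM, a ratio of 0.774 (0.654 to 0.913), and higher in Gstm1/CD63, at 9.15 and 12.7 CPM, a ratio of 1.39 (1.13 to 1.71). In Unannotated it was at 19.8 CPM in Control and 2.63 CPM, from 5 UMIs, in the other library. It was lowest in Hba-a2, at 0.598 and 0.551 CPM. The 56 Control cells of Cd74 had 82.2 CPM. Il6ra overlaps the antisense gene Gm42809.

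The class shares differ between the libraries, so the levels were also averaged over the 10 classes at one fixed set of shares. At the shares of Control the ratio of Csf1r was 1.12, from 0.616 over all cells, and at those of the other library 1.15. For Flt3 it was 0.320 and 0.254, from 0.181. Csf2rb stood at 2.65 and 3.43, from 1.89, Csf2rb2 at 4.60 and 7.36, from 2.53, and Csf3r at 1.63 and 1.99, from 1.503. Csf2ra was at 0.967 and 0.924, from 0.906. Epor was at 1.01 and 1.07, from 1.26, Il6ra at 0.944 and 0.989, from 0.721, and Kit at 0.893 and 0.878, from 0.881. At the shares of either library Flt3, Csf2ra, Epor and Il6ra therefore lay nearer to 1 than over all cells. Csf1r lay on the other side of 1, and Csf2rb, Csf2rb2 and Csf3r lay farther from it. With equal weight for each class this did not hold for Flt3, at 0.162, farther from 1 than over all cells, nor for Csf3r, at 1.48, nearer to 1 and below 1.5-fold.

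**Figure D4:**
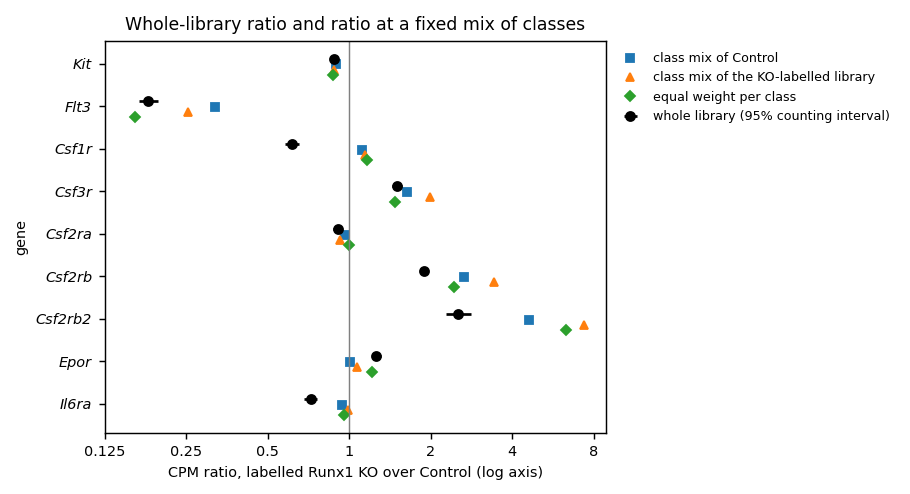
Ratio of the CPM of the library labelled Runx1 KO over Control (x axis, log scale) for each receptor (y axis) over the whole library with its 95% counting interval (black), and at fixed class shares of Control (blue), of the other library (orange) and of equal weight (green). Csf1r moves from 0.616 to 1.12 at the Control shares, and Csf2rb from 1.89 to 2.65.

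Receptor transcripts were also read together in the same cells, at equal depth. In the library labelled Runx1 KO, cells of Car1 with a Csf2rb UMI had a Csf2rb2 UMI in 11.1% (8.10 to 14.7) against 2.32% (1.77 to 2.98) of cells without one. The same shares in Pf4 were 11.8% (8.54 to 15.7) and 4.12% (3.13 to 5.32), and in CD34 they were 10.98% (7.48 to 15.4) and 5.08% (3.13 to 7.73). The intervals stood apart in Car1 and Pf4 and overlapped in CD34. In CD34 of Control the shares were 2.29% and 2.54%. For Csf3r and Csf2rb the classes differed: in Car1, 19.7% (14.7 to 25.4) of cells with Csf3r had Csf2rb against 12.4% (11.2 to 13.7), and in Pf4 19.4% against 20.1%. Cells of 1 library share their source, so these shares have no replicate.

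Genes with a like pattern were named by their Pearson correlation of log2(CPM + 1) with a receptor over 20 profiles, 1 for each class in each library. The profiles share library, depth and class markers, so the values are a description. With the 10 profiles of the Control library alone, most of the 3 genes named below changed for 8 of the 9 receptors. For Csf2rb and Csf2rb2 all of them did. The likenesses thus depend on the profiles used. Epor was most like Aqp1 (r = 0.99), the water channel of the red cell, then Lefty1 and Pcmt1 (both 0.97). Csf1r was most like Hpse (0.95), Ifi209 (0.93) and Emb (0.92), and Flt3 most like Shisa8 (0.93), Rasa4 and Kcng1 (both 0.90). Csf2rb2 was most like Socs3 (0.89), Pim1 and Grap (both 0.88), and Csf3r most like Tnfrsf1a (0.94), Pstpip1 (0.93) and Dok3 (0.92). Csf2ra was most like S100a11 (0.98), Lamtor4 (0.97) and Slc31a2 (0.95), and Csf2rb most like Clec4e (0.91), Man2b1 (0.90) and Fcgr2b (0.89). Kit was most like Spn, Rrnad1 and Frmd4a (all 0.91), and Il6ra most like Pitpna (0.92), Crybg3 and Rogdi (both 0.90). Among the receptors themselves, Csf3r and Csf2rb had the highest correlation (0.94), and Epor and Il6ra the lowest (-0.78).

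The genes around the receptors were read from fixed lists over all cells. Of 10 ligand genes none was measured: Epo and Il3 had 0 UMIs, Kitl had 53 UMIs in Control and 3 in the other library, and Flt3l was at 4.84 and 7.93 CPM. Of 30 JAK, STAT and adaptor genes 27 were measured, 3 were at least 1.5-fold higher and none lower, against 6.35% and 2.92% of all measured genes, with a median log2 ratio of 0.10 beside 0.00 for all measured genes. Stat3, which carries the signal of Csf3r and Il6ra among others, was at 42.8 and 74.2 CPM, a ratio of 1.73 (1.68 to 1.79). Jak3 was at 7.20 and 12.5 CPM and Lyn at 37.6 and 57.9 CPM, and Pik3cd, at 30.4 and 41.0 CPM, stayed below 1.5-fold. Stat3 was higher in CPM in all 10 classes, with ratios from 1.36 (Ltf) to 2.32 (Hba-a2).
Of 20 genes that cytokine signals induce or that restrain them 12 were measured, of which 4 were at least 1.5-fold higher and 1 lower, against the same 6.35% and 2.92%, with a median of 0.08. Socs3, which binds and restrains such receptors, was at 1.33 CPM in Control and 11.6 CPM in the other library, a ratio of 8.71 (7.55 to 10.1). Its ratio within classes was lowest in Hba-a2, at 2.76 from 4 and 9 UMIs with an interval that included 1, and highest in Car1, at 19.9 (12.5 to 34.0). Cish was at 3.40 and 10.4 CPM, Bcl2l1 at 6.46 and 18.0 CPM, and Pim1 at 64.5 and 212 CPM. The Bcl2l1 ratio was 2.78 over all cells, 2.55 in Car1, 2.32 in CD34 and 1.54 (1.28 to 1.87) in Pf4. In Ly86 its interval included 1 (0.906 to 1.55). The Cish ratio was 3.06 over all cells, 2.46 in Pf4 and 1.94 in Car1. For Pim1 it was 3.29 over all cells, and from 1.98 in Ltf to 4.06 in Pf4 within classes.
A list of 39 other receptor genes held cytokine, chemokine, growth factor and transferrin receptors. Of these 27 were measured, with 6 higher and 3 lower, again against 6.35% and 2.92%, and a median of -0.01. Tek, the angiopoietin receptor, was higher, at 2.74 and 12.2 CPM. Its ratio was 4.47 over all cells, 3.85 in CD34, 2.49 in Car1 and 1.83 in Pf4. Lower were Cx3cr1, at 11.9 and 2.21 CPM, and Pdgfrb, at 13.6 and 3.50 CPM. The Cx3cr1 ratio was 0.185 over all cells and 0.384 (0.325 to 0.451) in Ly86. For Pdgfrb it was 0.258 over all cells, 0.567 in CD34 and 0.207 in Car1. The part of the class shares in these ratios over all cells was not tested. Jak3, Socs3, Tek, Cx3cr1, Pdgfrb, Cish and Bcl2l1 reached 10 CPM in 1 library only, so they had to differ to be counted.

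**Figure D5:**
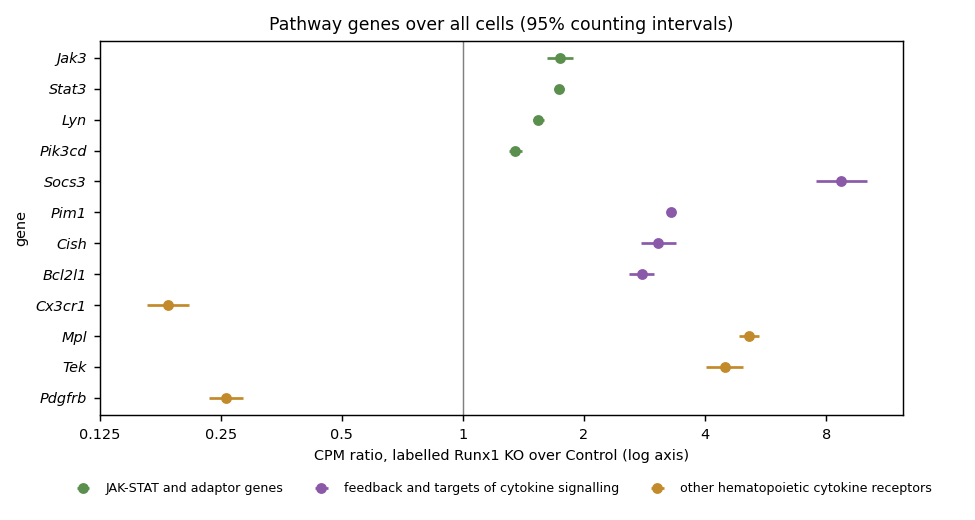
Ratio of the CPM of the library labelled Runx1 KO over Control over all cells (x axis, log scale) with 95% counting intervals for the named genes (y axis) of 3 lists. The lists are JAK-STAT and adaptor genes (green), feedback and target genes (purple) and other cytokine, chemokine and growth factor receptors (ochre). Socs3 has the highest ratio, 8.71, and Cx3cr1 the lowest, 0.185.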

How the data were processed

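Single-cell RNA was compared between 1 Control library (called wild type in the annotation) and 1 library labelled Runx1 KO. The deposited matrix holds counts, UMIs per gene and cell. The deposited cell annotation gives a cell class, the mitochondrial fraction of UMIs and a size factor, a ratio to a constant; the sources used here do not say how classes were assigned. The submitters' processing notes name Cell Ranger and the mm10 build, without version or settings. The embryos of 1 label field were set aside for the marrow of the tissue and extraction fields. UMIs were summed per library and class and given per 1000000 (CPM). Ratios carry exact conditional-binomial 95% intervals, levels exact Poisson intervals and shares exact Clopper-Pearson intervals, all for counting error only. Depth was 162278272 and 145590840 UMIs. Shares were compared after thinning each cell to 5000 UMIs, which left out 465 Control cells and 346 others. All deposited cells were used; doublets were not removed, and leaving out the 6% of cells with the highest Scrublet scores (scanpy 1.11.5) was an alternative.

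The receptors and gene lists were chosen with earlier results of these data known. Named were the 9 receptors, the 3 genes most like each (no receptor of the list, predicted or clone-named gene; at least 10 CPM in 1 profile), and up to 4 measured genes of each list with the largest log2 ratio, of which 1 is not reported here; Mpo, Elane, Prtn3, Ctsg, Dntt, Flt3l, Kitl, Epo, Il3, Camp, Ngp and Ltf were named outside this rule, after their values were seen. Locations follow GENCODE M21, matched by identifier for 31011 of 31053 genes. The ratio script was tested on simulated counts. Alternatives were filters on cells, scaling, thinning, minimum, fold and pseudocount; the division of Car1 and the count without Ltf and Unannotated were added after seeing the data. Python 3.11.15, scipy 1.17.1 and pandas 2.3.3 were used.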

Additional observations from a re-analysis of the deposited data

Results flagged for a closer look

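For 3 receptors the ratio of the library labelled Runx1 KO over Control lay above 1 in one class and below 1 in another, with the counting interval of each on its own side; the difference between the classes was not tested. Csf2ra had a ratio of 1.44 in Ly86 and 0.717 in Hba-a2. Epor had a ratio of 1.75 in CD34, at 2.89 and 5.07 CPM, and 0.906 in Car1. Epor in CD34 and Csf2ra in Hba-a2, at 8.97 and 6.43 CPM, lay below the 10 CPM set for a measured gene. Il6ra had a ratio of 1.39 in Gstm1/CD63 and 0.774 in CD34.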

How the results depend on the processing

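No paired analysis was possible because each genotype has 1 library. The main counts over all cells, 2 receptors higher and 2 lower, became 4 higher with the mean of the CPM of each cell, 1 higher after scaling by the median ratio of all measured genes, 0 higher and 1 lower at a fold of 2, 1 higher and 1 lower with a pseudocount of 10 CPM, and 0 lower with a minimum of 30 CPM. Without cells holding a UMI of 6 platelet genes 1 was lower. Within classes the 15 higher and 3 lower pairs became 31 and 12 with no minimum beyond 1 UMI. The share of all measured genes past 1.5-fold either way, 9.27%, was 5.24% without platelet-UMI cells, 4.47% at a fold of 2, 38.3% with no minimum and 5.61% with the pseudocount. The platelet filter kept 5591 Control cells and 2573 others, with 8 and 10 in Pf4, and turned the direction of Csf1r over all cells (1.07) and Epor in Pf4 (0.389); the cause was not tested. Under it 15 of 69 receptor ratios lay on the other side of 1 and 12 moved by over 1.5 times, among them Kit in Pf4 (1.24) and Unannotated (1.68), Csf2ra in Pf4 (1.82) and Unannotated (1.47), Il6ra in Car1 (0.585), Flt3 in Car1 (0.183) and over all cells (0.289), and Csf2rb in Unannotated (5.33). Of 72 ratios of receptors, none turned without cells with 10% or more mitochondrial UMIs, and none moved by over 1.5 times. Thinning to 5000 UMIs put 11 of 71 on the other side of 1 and moved 6 by over 1.5 times, among them Flt3 in Gstm1/Ly86 (1.70) and Gstm1/CD63 (0.485) and Csf2ra in Unannotated (0.585). Of the Pf4 ratios, Csf3r was 7.06 when thinned to 5000 UMIs and Csf2rb2 24.5 by the mean of each cell; Csf2rb2 in Ly86 was 5.02 when thinned. The few Control UMIs in Pf4, 7 of Csf3r and 10 of Csf2rb, limit the size of those ratios.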
